A study of Caenorhabditis elegans with 6 samples.

Results

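Described here are 40 genes of DNA replication and the cell cycle in Caenorhabditis elegans, taken by name from a fixed list, out of 47656 genes in the deposited tables. All 40 were found once in each table, and all 40 passed the filter on low values, which asked for 3 or more libraries with an FPKM of 1 or above. RNA was measured by short-read sequencing of whole worms of the N2 strain, the standard laboratory wild type. A first group of 3 libraries came from worms given D-mannose, a hexose sugar, and a second group of 3 came from worms given water. Both groups grew on agar plates with the Escherichia coli strain OP50 as food and were 6 days old at harvest. The dose of mannose, the length of the treatment, the number of worms in a library and whether replicates were separate cultures were not given in the sources used here, so p-values measure the spread between these samples, which may be technical.

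Before a cell divides it copies its genome in S phase and then separates the copies in mitosis. The origin recognition complex, CDC-6 and CDT-1 load the MCM helicase onto origins of replication, the GINS complex helps to activate it, and polymerases held by the PCNA clamp copy the strands with nucleotides that ribonucleotide reductase makes. Cyclins bound to cyclin-dependent kinases drive these steps and the entry into mitosis, where the Polo and Aurora kinases, the centrosome and the cytokinesis machinery build the spindle and cleave the cell. In an adult hermaphrodite the somatic cells no longer divide; the dividing cells are germ cells and, in the uterus, embryos, and developing oocytes are loaded with the same transcripts for the embryo's first divisions.

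Values are FPKM, fragments scaled to gene length and to the reads of the library, so levels can be compared between genes per length. The libraries held 39900000 to 46000000 read equivalents after rounding, and the members' values rested on 740 to 48431 read equivalents, so counting error was small against the spread between libraries. Whole worms hold many tissues, and the defining markers of the intestine (10 of 10), body wall muscle (7 of 7), hypodermis (7 of 7), neurons (8 of 8), gonad sheath (4 of 4) and sperm (26 of 26) all had values above 0 in at least 1 library. Of 15 markers of zygotic transcription in the early embryo, 2 passed the filter, pes-10 and elt-7, and med-1 was listed at 0 in every library; the 15 summed to 7.51 to 12.5 FPKM in mannose and 8.54 to 12.2 FPKM in water. Libraries of a group were not alike: mannose 1 and water 3 stood apart from the other 4 in many of the genes below, and the main counts are also given without them. In whole worms, fewer cells of a type and less RNA per cell cannot be told apart.

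None of the 40 genes was called between mannose and water. Over all tested genes limma called 0 of 11237 at an adjusted p of 0.05, which is 0% of them, and every member had a limma adjusted p of 0.9999. At an unadjusted p under 0.05 there was 1 member of 40, spd-5, against 532 (4.73%) of all tested genes, and limma-voom, fitted to read equivalents, called 0 genes and had 535 at that level, with the same single member. The log2 difference (mannose minus water, of log2(FPKM + 1)) was above 0 for 26 members and below 0 for 14, against 54.5% above 0 over all tested genes, and its median was 0.08 over the members and 0.015 over all tested genes. With upper-quartile scaling the split was 20 above and 20 below, with a median of 0.017.

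The groups did not overlap for 2 members, cya-1 and spd-5, both higher in mannose, where 5.42% of all tested genes were higher without overlap; 0 members were lower without overlap, against 5.31%. The share higher was thus near its background. In either direction there were 2 of 40 members, against 10.7% of all tested genes. The genes cya-1 and spd-5 stayed without overlap with each library left out, as leaving out a library cannot create overlap, and both the count and its background then rose or stayed. The median moved with single libraries. It was 0.0074 without mannose 1, 0.43 without mannose 3, −0.028 without water 1, 0.036 without water 2 and 0.39 without water 3. Higher without overlap were 4 members without mannose 1 (background 10.5%), 9 without mannose 3 (12.7%), 3 without water 2 (9.14%) and 8 without water 3 (12.8%), and lower without overlap were 1 without mannose 3 (11.4%) and 4 without water 3 (12.03%). Without mannose 1 and water 3 together, 10 members were higher (background 18.4%) and 4 lower (16.3%) without overlap, the median difference was 0.073, and 0 members were called by limma, with cdt-1 and cye-1 at an unadjusted p under 0.05. The 95% interval of the difference lay within 1 log2 unit, a 2-fold change, to each side of 0 for 22 members and reached past it for 18, so for those 18 a 2-fold difference lay within what these libraries could not resolve.

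**Figure D1:**
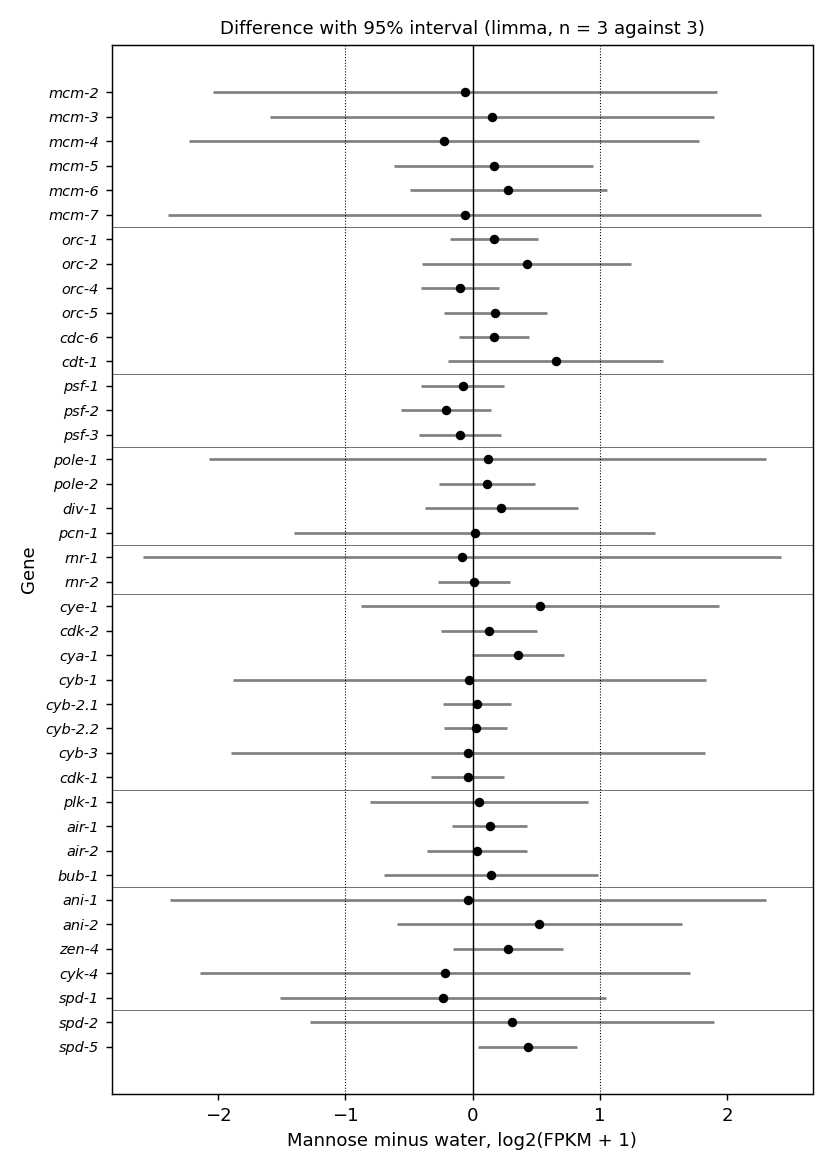
Mannose minus water difference of log2(FPKM + 1) for each of the 40 genes (points) with the 95% interval from limma (bars, n = 3 libraries a group); dotted lines mark 1 log2 unit, and thin lines part the roles. The intervals of mcm-7, rnr-1, pole-1 and ani-1 reach past 2 log2 units to each side, while those of the GINS genes, cdk-1 and the cyb-2 genes stay within 1.

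Levels spanned a wide range. The highest mean over the 6 libraries was that of rnr-2 at 633 ± 46.5 FPKM (SD, n = 6), followed by cyb-2.2 at 381 ± 21.0 and pcn-1 at 316 ± 171 FPKM. The lowest were pole-1 at 7.87 ± 7.77, cdt-1 at 12.8 ± 5.73 and orc-2 at 20.7 ± 7.54 FPKM. The median member averaged 70.3 FPKM, against 13.8 FPKM for the median tested gene, and 13 members averaged at least 100 FPKM. The spread between libraries differed as widely. The highest library was 1.17 times the lowest for cyb-2.1 and 8.65 times for rnr-1, and it was at least 2 times the lowest for 21 of 40 members, against 33.3% of all tested genes. At 3 times or more there were 16 members (15.4% of tested genes), and at 5 times or more 9 members (5.88%). Without mannose 1 and water 3, 4 members reached 2 times, mcm-2, mcm-3, cdt-1 and cyb-3, against 10.03% of tested genes.

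**Figure D2:**
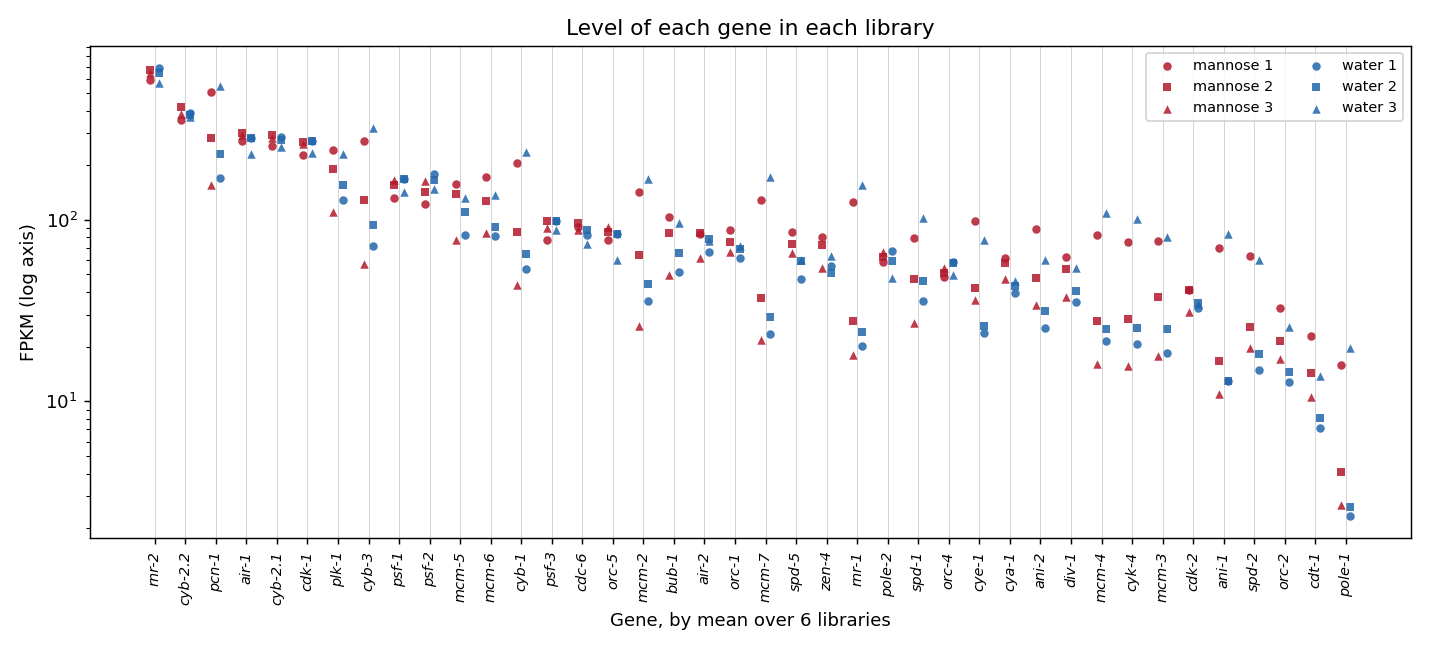
Level of each gene in FPKM (log axis) in the 3 mannose libraries (red, left) and the 3 water libraries (blue, right), ordered by the mean over 6 libraries. Genes with tight clusters of points such as rnr-2 and cyb-2.2 stand beside genes such as rnr-1 and mcm-7, whose points for mannose 1 and water 3 lie far above the rest.

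The MCM genes encode the 6 subunits of the ring-shaped helicase that unwinds DNA at the replication fork. The widest spread among them was in mcm-7 (CELE_F32D1.10, chromosome V, 4347160 to 4349768), which had 128, 36.9 and 21.9 FPKM in mannose 1, 2 and 3, against 23.4, 29.3 and 172 FPKM in water 1, 2 and 3. Mannose 1 and water 3 were high and the other 4 libraries low, so the groups overlapped, with 62.2 ± 57.3 FPKM in mannose and 74.9 ± 84.2 FPKM in water (SD, n = 3 each) and a log2 difference of −0.064 (SE 0.95). The genes mcm-2 and mcm-4 followed the same order of libraries, with 143, 63.9 and 25.9 FPKM in mannose 1, 2 and 3, against 35.8, 44.3 and 169 FPKM in water 1, 2 and 3 for mcm-2. For mcm-4 the range was 16.04 to 82.0 FPKM in mannose and 21.6 to 109.6 FPKM in water, with water 3 again the highest and mannose 3 the lowest.

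The other subunits mcm-5 and mcm-6 spread less between libraries. The most abundant, mcm-5 (CELE_R10E4.4, chromosome III, 4288262 to 4291266), had 159, 139 and 77.1 FPKM in mannose 1, 2 and 3, against 82.2, 111 and 133 FPKM in water 1, 2 and 3. Its mannose 1 and mannose 2 values were the highest, its groups overlapped, and the highest library was 2.06 times the lowest. For mcm-6, the MCM gene with the smallest p, the values were 171, 127 and 84.4 FPKM in mannose 1, 2 and 3, against 81.2, 91.5 and 137 FPKM in water 1, 2 and 3. Its log2 difference was 0.28 (SE 0.32), and water 3 lay above mannose 2 and mannose 3. The ratio of mcm-7 to mcm-5 was 0.806, 0.265 and 0.284 in mannose 1, 2 and 3, against 0.285, 0.265 and 1.3 in water 1, 2 and 3. That ratio was highest in water 3 and mannose 1 and 0.265 to 0.285 in the other 4 libraries. The gene mcm-3 (17.9 to 76.4 FPKM in mannose and 18.4 to 80.6 FPKM in water) spans the whole of the short model C25D7.20 on the same strand, which had a like pattern (26.2 to 116 FPKM in mannose and 26.7 to 122 FPKM in water), so reads of the pair may be divided between models.

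Genes that license origins spread less. The most abundant, cdc-6, a loader of the helicase (CELE_C43E11.10, chromosome I, 4268069 to 4270287), had 91.0, 95.6 and 87.4 FPKM in mannose 1, 2 and 3, against 82.2, 87.8 and 74.0 FPKM in water 1, 2 and 3. All 6 libraries lay close together, water 3 was the lowest, and the log2 difference was 0.17 (SE 0.11). CDT-1 is its partner in loading and is destroyed once replication starts. The gene cdt-1 (CELE_Y54E10A.15, chromosome I, 3223160 to 3228104) had 22.8, 14.4 and 10.5 FPKM in mannose 1, 2 and 3, against 7.15, 8.05 and 13.8 FPKM in water 1, 2 and 3. All but 1 of the water libraries lay below the 3 mannose libraries: water 3 lay above mannose 3. Its log2 difference was the largest of the 40 members, 0.65 (SE 0.35), and its 95% interval of −0.19 to 1.49 held 0. Without mannose 3, without water 3 and without both mannose 1 and water 3 it had an unadjusted limma p under 0.05, and under the other alternatives it did not. Over all alternatives the difference was 0.37 to 0.91, with the lowest value without mannose 1 (unadjusted limma p of 0.296) and the highest without water 3, and the limma adjusted p was 0.708 to 1.

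The origin recognition complex subunits divided. The gene orc-2 had 32.8, 21.4 and 17.1 FPKM in mannose 1, 2 and 3, against 12.7, 14.6 and 25.6 FPKM in water 1, 2 and 3, with mannose 1 and water 3 the highest and water 1 the lowest. By contrast orc-4 had 48.3 to 54.4 FPKM in mannose and 49.4 to 58.5 FPKM in water, with mannose 1 and water 3 its lowest libraries, and orc-5 had 77.5 to 91.5 FPKM in mannose and 59.9 to 83.8 FPKM in water. For orc-1 the range was 66.4 to 87.5 FPKM in mannose and 61.7 to 71.9 FPKM in water. The highest library was 2.58 times the lowest for orc-2 and 1.21, 1.53 and 1.42 times for orc-4, orc-5 and orc-1. The log2 differences of the 6 licensing genes had a median of 0.17, 5 were above 0 and 1, that of orc-4, below it, and 0 were called by limma.

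The GINS complex joins the helicase as it starts to unwind, and on the FPKM scale its genes were among the steadiest. The gene psf-1 (CELE_R53.6, chromosome II, 9968673 to 9969631) had 131, 155 and 165 FPKM in mannose 1, 2 and 3, against 167, 167 and 142 FPKM in water 1, 2 and 3, and mannose 1 and water 3 were its lowest libraries. The gene psf-2 had 122, 142 and 163 FPKM in mannose 1, 2 and 3, against 179, 165 and 147 FPKM in water 1, 2 and 3. Mannose 1 and mannose 2 lay below the water libraries, but mannose 3 lay between them. Its log2 difference was −0.21 (SE 0.15), and those of psf-1 and psf-3 were −0.079 and −0.10. The 3 GINS genes were the role group in which all differences were below 0, and none was called by limma. Their listed lengths of 669, 612 and 1101 bases are among the shortest of the members.

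Subunits of the same enzyme differed in spread at the replication fork. DNA polymerase epsilon synthesises the leading strand, and its catalytic subunit gene pole-1 (CELE_F33H2.5, chromosome I, 15005603 to 15013909) had 15.8, 4.09 and 2.69 FPKM in mannose 1, 2 and 3, against 2.33, 2.61 and 19.7 FPKM in water 1, 2 and 3. Mannose 1 and water 3 were several times higher than the other 4 libraries, in both groups, and the log2 difference was 0.12 (SE 0.89). The gene of its second subunit, pole-2, had 58.8, 62.2 and 66.2 FPKM in mannose 1, 2 and 3, against 67.3, 59.1 and 47.8 FPKM in water 1, 2 and 3. Here mannose 1 and water 3 were the lowest libraries. The ratio of pole-1 to pole-2 was 0.269, 0.0658 and 0.0407 in mannose 1, 2 and 3, against 0.0347, 0.0441 and 0.411 in water 1, 2 and 3, a ratio that was highest in water 3 and lowest in water 1.

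Ribonucleotide reductase showed the same contrast. Its large subunit gene rnr-1 (CELE_T23G5.1, chromosome III, 9225339 to 9228791) had 126, 27.7 and 18.1 FPKM in mannose 1, 2 and 3, against 20.1, 24.0 and 157 FPKM in water 1, 2 and 3. It had the widest spread of the 40 members, with mannose 1 and water 3 high, and a log2 difference of −0.084 (SE 1.02). The small subunit gene rnr-2 (CELE_C03C10.3, chromosome III, 4089687 to 4094921) had 589.6, 673 and 643 FPKM in mannose 1, 2 and 3, against 684, 645 and 566 FPKM in water 1, 2 and 3. Its 6 libraries lay within 1.21 times of each other, and mannose 1 and water 3 were the lowest. The log2 difference of rnr-2 was 0.01 (SE 0.12), with a 95% interval of −0.27 to 0.29. The ratio of rnr-1 to rnr-2 was 0.214, 0.0412 and 0.0282 in mannose 1, 2 and 3, against 0.0294, 0.0372 and 0.277 in water 1, 2 and 3.

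The sliding clamp gene pcn-1, which encodes PCNA (CELE_W03D2.4, chromosome IV, 4047937 to 4049450), had 506, 284 and 156 FPKM in mannose 1, 2 and 3, against 171, 231 and 549 FPKM in water 1, 2 and 3. Mannose 1 and water 3 were the highest and mannose 3 and water 1 the lowest, and the group values were 315 ± 177 FPKM in mannose and 317 ± 204 FPKM in water (SD, n = 3 each). For div-1, a subunit of the DNA polymerase alpha and primase complex that starts each new strand, the values were 62.6, 53.3 and 37.7 FPKM in mannose 1, 2 and 3, against 35.2, 40.5 and 54.6 FPKM in water 1, 2 and 3. Mannose 1 was the highest, the groups overlapped, and the log2 difference was 0.23 (SE 0.25).

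The cyclin and kinase genes held both kinds of pattern. CDK-1 is the kinase of mitotic entry, and cdk-1 had 227, 269 and 261 FPKM in mannose 1, 2 and 3, against 274, 271 and 234 FPKM in water 1, 2 and 3. Its libraries lay within 1.20 times of each other, with mannose 1 and water 3 the lowest, although the gene spans the germline-expressed iff-1 on the other strand, at 3432 to 4437 FPKM in mannose and 4098 to 4847 FPKM in water. The kinase gene cdk-2, of the start of S phase, had 31.01 to 41.1 FPKM in mannose and 32.7 to 34.9 FPKM in water, and its cyclin gene cye-1 had 98.3, 41.98 and 36.0 FPKM in mannose 1, 2 and 3, against 23.9, 26.1 and 77.4 FPKM in water 1, 2 and 3. For cye-1 mannose 1 and water 3 were the highest, and the 3 mannose libraries each lay above water 1 and water 2. The log2 difference of cye-1 was 0.53 (SE 0.57), and without mannose 1 and water 3 it was 0.62 with an unadjusted limma p of 0.00908 (adjusted p = 0.675, and 0.675 to 1 over its alternatives). It was 0.087 without mannose 1 and 1.06 without water 3, with no call in either. Leaving out mannose 1 and water 3 removed the 2 highest libraries of cye-1, and the SE fell to 0.158. These libraries were chosen with the data known, so the p of that fit is no independent test.

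Among B-type cyclins, which activate CDK-1 in mitosis and in the meiotic divisions of the oocyte, cyb-1 and cyb-3 spread widely between libraries and the cyb-2 genes little. The gene cyb-3 (CELE_T06E6.2, chromosome V, 15393906 to 15397351) had 272, 128 and 56.9 FPKM in mannose 1, 2 and 3, against 71.5, 93.5 and 322 FPKM in water 1, 2 and 3, a spread of 5.66 times, and cyb-1 had 206, 86.2 and 43.7 FPKM in mannose 1, 2 and 3, against 53.3, 65.2 and 236 FPKM in water 1, 2 and 3. In both genes mannose 1 and water 3 were the highest. By contrast cyb-2.1 (CELE_Y43E12A.1, chromosome IV, 10985978 to 10987426) had 255, 295 and 283 FPKM in mannose 1, 2 and 3, against 287, 276 and 251 FPKM in water 1, 2 and 3. The gene cyb-2.2 (CELE_H31G24.4, chromosome I, 4114861 to 4116370) had 355, 417 and 381 FPKM in mannose 1, 2 and 3, against 387, 380.0 and 367 FPKM in water 1, 2 and 3. Both were lowest in mannose 1 and water 3, and the highest library was 1.17 times the lowest in each. These are close copies, and the handling of reads that match both was not given in the sources used here, so the division between them is uncertain; the ratio of cyb-2.2 to cyb-2.1 lay between 1.35 and 1.42 in mannose libraries and between 1.35 and 1.46 in water libraries. The ratio of cyb-3 to cyb-2.1 was 1.07, 0.436 and 0.201 in mannose 1, 2 and 3, against 0.249, 0.339 and 1.28 in water 1, 2 and 3.

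Cyclin A, which acts in S phase and early mitosis, was 1 of the pair of members without overlap. The gene cya-1 (CELE_ZK507.6, chromosome III, 9106689 to 9109272) had 61.4, 57.8 and 47.1 FPKM in mannose 1, 2 and 3, against 39.4, 43.2 and 46.2 FPKM in water 1, 2 and 3. The lowest mannose value, in mannose 3, lay just above the highest water value, in water 3. The group values were 55.4 ± 7.46 FPKM in mannose and 42.9 ± 3.4 FPKM in water (SD, n = 3 each), and the log2 difference was 0.35 (SE 0.15), with a 95% interval of −0.0062 to 0.72 and a limma adjusted p of 0.9999. Over the alternatives its difference was 0.28 to 0.47 and its limma adjusted p was 0.762 to 1.

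The mitotic kinase genes were abundant. Aurora A, which matures the centrosome, is encoded by air-1 (CELE_K07C11.2, chromosome V, 8221488 to 8223585), which had 273, 301 and 294 FPKM in mannose 1, 2 and 3, against 283, 282 and 229 FPKM in water 1, 2 and 3. Water 3 was the lowest library, and the log2 difference was 0.13 (SE 0.12). Aurora B, of the chromosomal passenger complex, is encoded by air-2, which had 61.5 to 84.5 FPKM in mannose and 66.7 to 78.6 FPKM in water. The Polo kinase gene plk-1 (CELE_C14B9.4, chromosome III, 8100920 to 8104074) had 242, 191 and 110.2 FPKM in mannose 1, 2 and 3, against 128, 156 and 231 FPKM in water 1, 2 and 3. Mannose 1, water 3 and mannose 2 were the highest, and the log2 difference was 0.047 (SE 0.35). For bub-1, a kinase of the spindle checkpoint, the range was 49.7 to 104 FPKM in mannose and 51.5 to 95.98 FPKM in water, in an order of libraries like that of plk-1.

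Cytokinesis genes spread widely, with a median ratio of highest to lowest library of 3.76 over the 5 genes. Anillin links the contractile ring to the membrane, and its gene ani-1 (CELE_Y49E10.19, chromosome III, 12446353 to 12453204) had 69.8, 16.7 and 11.03 FPKM in mannose 1, 2 and 3, against 12.9, 12.97 and 83.3 FPKM in water 1, 2 and 3. Mannose 1 and water 3 were several times higher than the rest, and the log2 difference was −0.038 (SE 0.96). The anillin-like gene ani-2, whose product stabilises the bridges that join germ cells to their shared cytoplasm, had 89.5, 47.8 and 34.0 FPKM in mannose 1, 2 and 3, against 25.31, 31.3 and 60.2 FPKM in water 1, 2 and 3. ZEN-4 and CYK-4 bind each other to form centralspindlin, which bundles the microtubules between separating chromosomes. The gene zen-4 (CELE_M03D4.1, chromosome IV, 6118215 to 6121777) had 80.1, 72.9 and 54.6 FPKM in mannose 1, 2 and 3, against 55.5, 50.7 and 63.0 FPKM in water 1, 2 and 3, a spread of 1.58 times and a log2 difference of 0.28 (SE 0.18). Its partner cyk-4 had 75.6, 28.4 and 15.6 FPKM in mannose 1, 2 and 3, against 20.7, 25.5 and 101.5 FPKM in water 1, 2 and 3. The ratio of cyk-4 to zen-4 was 0.944, 0.39 and 0.285 in mannose 1, 2 and 3, against 0.373, 0.503 and 1.61 in water 1, 2 and 3. For spd-1, which crosslinks the same microtubules, the range was 27.1 to 79.6 FPKM in mannose and 35.7 to 102 FPKM in water.

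At the centrosome, SPD-5 forms the scaffold of the pericentriolar material and SPD-2 recruits it. The gene spd-5 (CELE_F56A3.4, chromosome I, 5171285 to 5176664) had 85.9, 74.0 and 65.7 FPKM in mannose 1, 2 and 3, against 47.0, 59.3 and 60.0 FPKM in water 1, 2 and 3. Each mannose library lay above each water library, with 75.2 ± 10.1 FPKM in mannose and 55.4 ± 7.29 FPKM in water (SD, n = 3 each). The log2 difference was 0.43 (SE 0.16), with a 95% interval of 0.045 to 0.82; the unadjusted p was 0.034 and the limma adjusted p 0.9999. It was 0.32 to 0.53 over the alternatives, with limma adjusted p of 0.762 to 1, and it had an unadjusted p above 0.05 without mannose 1, without mannose 2, without water 1, without water 2, without mannose 1 and water 3 together, and with the replicate number as a term. The span of spd-5 shares 32 bases with hcp-6 on the other strand, and hcp-6 had 6.52 to 19.98 FPKM in mannose and 6.55 to 15.5 FPKM in water. For spd-2 the values were 62.8, 25.8 and 19.6 FPKM in mannose 1, 2 and 3, against 14.8, 18.3 and 59.9 FPKM in water 1, 2 and 3, with mannose 1 and water 3 the highest and a log2 difference of 0.31 (SE 0.65).

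**Figure D3:**
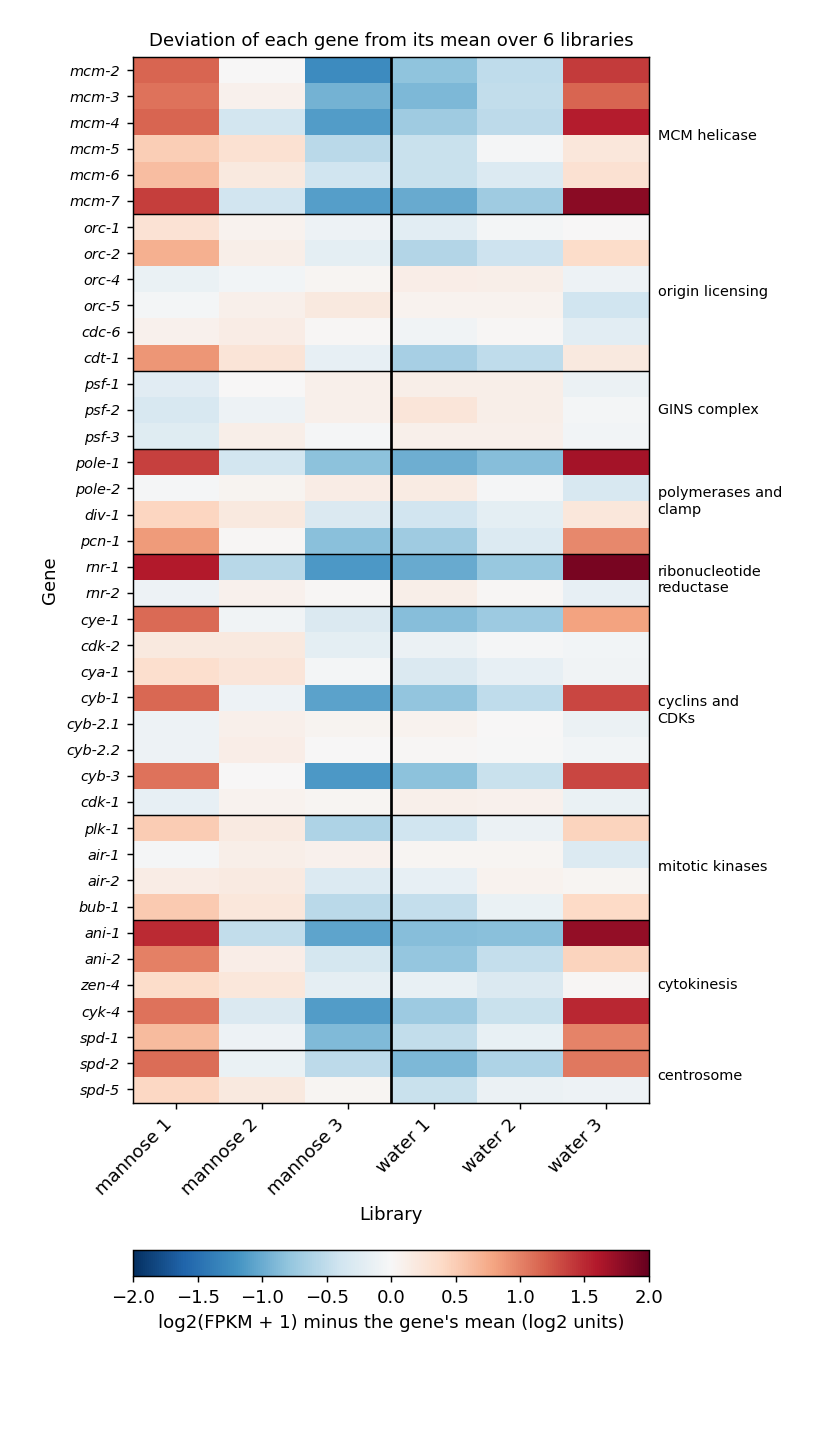
Deviation of log2(FPKM + 1) from each gene's mean over the 6 libraries, in log2 units (red above, blue below), for the 40 genes by role, with the mannose libraries left of the black line and the water libraries right of it. In 20 genes mannose 1 and water 3 are the reddest columns; the GINS genes, rnr-2, cdk-1 and the cyb-2 genes are pale in all 6 libraries.

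The order of the libraries cut across the treatment. In 20 of 40 members, mannose 1 and water 3 were the 2 highest libraries, against 28.6% of all tested genes, and in 10 members they were the 2 lowest, against 21.5%. These counts were taken on the FPKM scale only, on which the sum over all genes was also highest in mannose 1 and water 3. The 20 were 5 of the 6 MCM genes, orc-2, pole-1, div-1, pcn-1, rnr-1, cye-1, cyb-1, cyb-3, plk-1, bub-1, 4 of the 5 cytokinesis genes and spd-2. The 10 were orc-4, orc-5, psf-1, psf-3, pole-2, rnr-2, cyb-2.1, cyb-2.2, cdk-1 and air-1. Median deviations of the 40 members from each gene's own mean were 0.50, 0.087 and −0.28 in mannose 1, 2 and 3, against −0.44, −0.15 and 0.23 in water 1, 2 and 3, in log2 units. Mannose 1 was the highest library for 15 members, water 3 for 12, mannose 2 and water 1 for 6 each and mannose 3 for 1, while mannose 3 was the lowest for 16 and water 1 for 11.

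Gene length moved with this order. The 20 members highest in mannose 1 and water 3 had a median listed length of 2595 bases (993 to 6567), and the 10 members lowest there had 1362 bases (669 to 2621). The second set was also more abundant, with a median of 205 FPKM against 53.4 FPKM in the first. Across the 40 members, which share the same 6 libraries, length and the ratio of highest to lowest library had a Spearman correlation of 0.61, and across 11237 tested genes it was 0.18. Of the 2812 longest tested genes, from 2049 bases, 50.7% were highest in mannose 1 and water 3 and 5.69% lowest there, and of the 24 members in that range the counts were 16 and 1. Among tested genes from 827 to 1352 and from 1353 to 2048 bases, 17.7% and 27.7% were highest in these libraries, and of the members there 1 of 6 and 3 of 8. Lowest in these libraries were 31.3% and 18.7% of those tested genes, and 4 of 6 and 4 of 8 members. Of tested genes up to 826 bases, 18.1% were highest and 30.2% lowest there, and of the 2 members 0 and 1. The part of length in the pattern was not tested. Lengths overlapped between the sets: pcn-1 (993 bases) and cyb-1 (1568 bases) were highest in mannose 1 and water 3, and orc-4 (2621 bases) was lowest there.

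**Figure D4:**
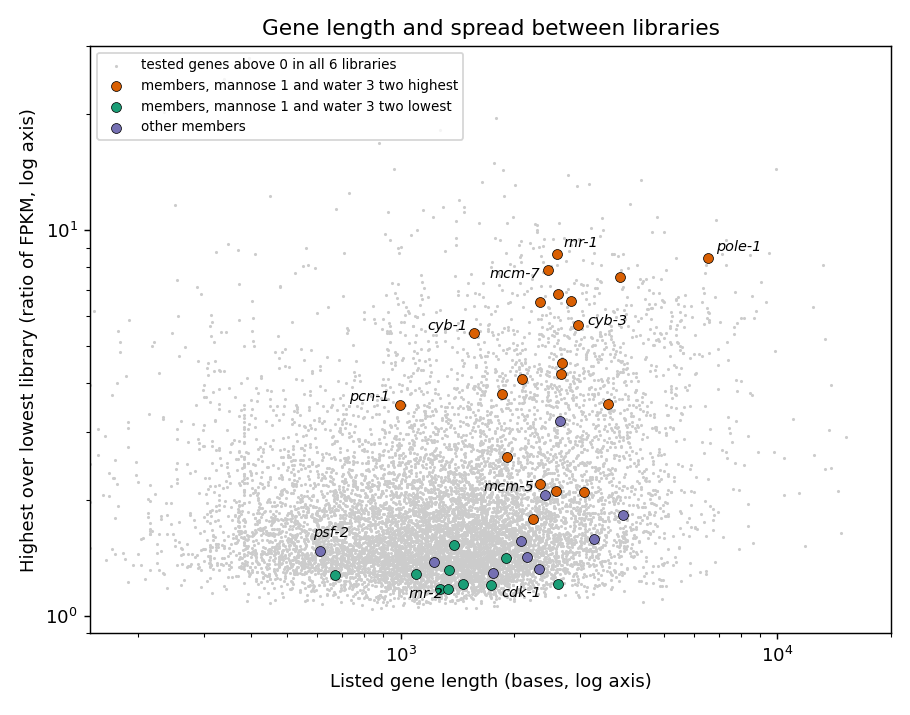
Ratio of the highest to the lowest library (FPKM, log axis) against listed gene length (bases, log axis) for the tested genes (grey) and the 40 members (coloured by whether mannose 1 and water 3 are their 2 highest or 2 lowest libraries); 443 tested genes lie outside the axes or have a library at 0. The members highest in mannose 1 and water 3 reach ratios of 1.78 to 8.65, and those lowest there stay at 1.17 to 1.53.

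Most markers listed for oocytes and for early germ cells had mannose 1 and water 3 as their 2 highest libraries, against 28.6% of all tested genes. Other lists followed that order less or not at all. The 19 oocyte and eggshell markers, each of which had values above 0 in all libraries, summed to 8905, 5537 and 3689 FPKM in mannose 1, 2 and 3, against 3969.8, 4605 and 9853 FPKM in water 1, 2 and 3, and 16 of the 19 were highest in mannose 1 and water 3. The 10 genes listed for mitotic and early germ cells summed to 1346, 659.9 and 399 FPKM in mannose 1, 2 and 3, against 437, 544 and 1514 FPKM in water 1, 2 and 3. Most of each sum was gld-1, glh-1 and pgl-1, so it mainly follows these genes. By contrast fbf-1 lay between 19.3 and 30.2 FPKM and fbf-2 between 20.6 and 31.4 FPKM over the 6 libraries. In all, 9 of the 10 had mannose 1 and water 3 as their 2 highest libraries, and glp-1 did not. The 10 markers of the meiotic axis and synapsis, by contrast, summed to 663 to 684 FPKM in mannose and 609 to 665 FPKM in water, and 2 of the 10 were highest there and 3 lowest. The summed markers of zygotic transcription, given above, were lowest in mannose 1 and water 3. Most of each sum was elt-7 and pes-10. The gene pes-10 was lowest in these libraries, but elt-7 was lower in water 2 (4.72 FPKM) than in water 3 (4.84 FPKM). Intestine markers summed to 6716 to 8408 FPKM in mannose and 7375 to 8301 FPKM in water, and body wall muscle markers to 1561 to 2239 FPKM in mannose and 2129 to 2173 FPKM in water. The 26 sperm markers summed to 1225, 714 and 864 FPKM in mannose 1, 2 and 3, against 1172, 1259 and 1664 FPKM in water 1, 2 and 3, and of the 23 that passed the filter 13 were highest in mannose 1 and water 3. Hypodermis markers summed to 7986 to 9408 FPKM in mannose and 10929.7 to 12293 FPKM in water, so that each mannose sum lay below each water sum. Most of each sum was the collagen genes col-19, col-20 and col-140. All 5 that passed the filter had log2 differences below 0, and 3 were lower without overlap, against 5.31% of all tested genes. None was called by limma. Below the filter, dpy-7 had 0.50 to 0.72 FPKM in mannose and 0.38 to 0.58 FPKM in water. The 8 neuron markers summed to 178, 134 and 107 FPKM in mannose 1, 2 and 3, against 97.3, 114 and 211 FPKM in water 1, 2 and 3. Most of each sum was the gene snb-1, at 81.9 to 156 FPKM in mannose and 76.6 to 190 FPKM in water. Of the 6 neuron markers that passed the filter, 2 were highest in mannose 1 and water 3. Gonad sheath markers summed to 121 to 138 FPKM in mannose and 113 to 143 FPKM in water. The part of these cell types in the members' values was not tested.

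**Figure D5:**
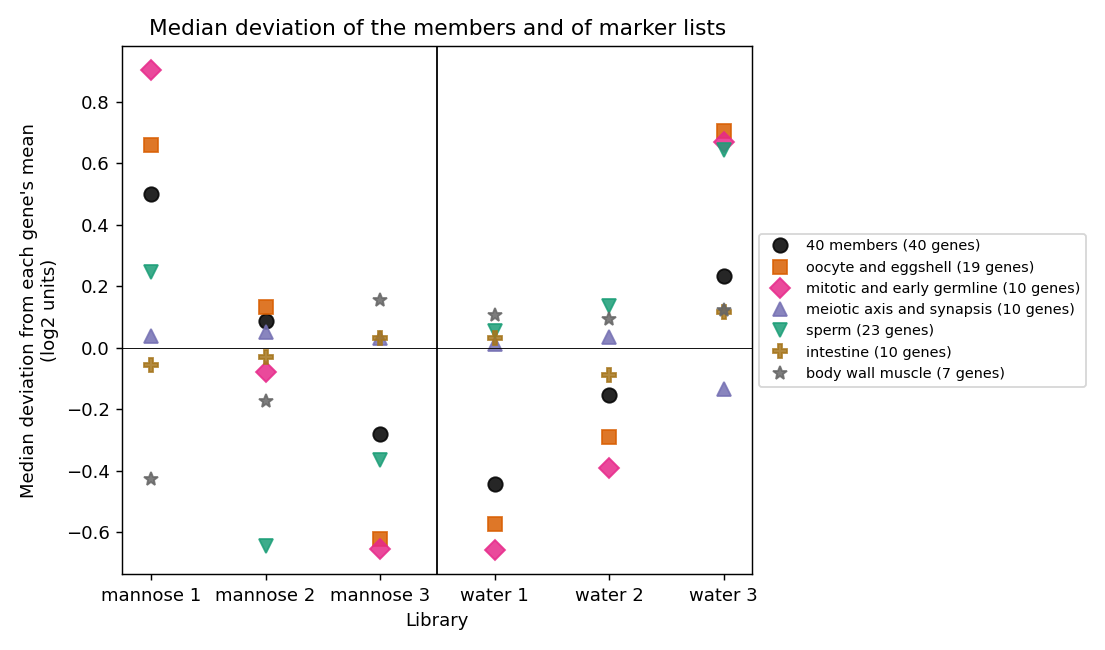
Median deviation from each gene's mean over the 6 libraries (log2 units) for the 40 members and for marker lists, in each mannose library (left) and water library (right). The members lie at 0.50 in mannose 1 and 0.23 in water 3, between the oocyte markers (0.66 and 0.71) and the meiotic axis markers (0.039 and −0.13).

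Other genes of the same processes were read from 4 lists that hold no member. Over all tested genes, 54.5% had a log2 difference above 0, with a median of 0.015. Of 31 other replication genes, 23 had a log2 difference above 0 and 8 below, with a median of 0.16; 1 was higher and 0 were lower at an unadjusted limma p under 0.05, against 2.04% and 2.7% of all tested genes. Of 36 other cell cycle regulators, 29 were above 0, with a median of 0.19, and 2 were higher at that level. Of 47 spindle and kinetochore genes, 36 were above 0, with a median of 0.19, and 4 were higher at that level. Of 13 other cytokinesis genes, 12 were above 0, with a median of 0.15, and 0 were higher or lower at that level. None of these genes was called by limma, each with an adjusted p of 0.9999. Higher in mannose without overlap were 5 of 31, 2 of 36, 6 of 47 and 0 of 13 genes of these lists, against 5.42% of all tested genes. In each list 0 genes were lower without overlap, against 5.31%. Mannose 1 and water 3 were the 2 highest libraries for 12 of 31, 19 of 36, 27 of 47 and 7 of 13 genes of these lists, taken in the same order, against 28.6% of all tested genes. The counts and medians of these lists were not taken under other scalings or with libraries left out. With upper-quartile scaling the members' own split was 20 above 0 and 20 below.

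Genes of small p from each of those lists follow, all with log2 differences above 0. They were picked for small p, so they do not stand for their lists. The replisome gene ctf-4 had 51.1, 44.9 and 43.0 FPKM in mannose 1, 2 and 3, against 36.2, 21.1 and 35.5 FPKM in water 1, 2 and 3. Its groups did not overlap, and its log2 difference was 0.60 (SE 0.23). The clamp loader gene rfc-1 had 44.2 to 67.1 FPKM in mannose and 33.8 to 44.6 FPKM in water, and cul-4, of the ubiquitin ligase that removes CDT-1, had 32.9 to 33.8 FPKM in mannose and 21.9 to 31.5 FPKM in water. Both lin-35, the worm's retinoblastoma gene, and lin-9 belong to the DREAM complex, which represses cell cycle genes. The gene lin-35 had 40.4, 38.1 and 35.9 FPKM in mannose 1, 2 and 3, against 28.9, 32.4 and 25.11 FPKM in water 1, 2 and 3, and lin-9 had 39.8, 34.9 and 32.0 FPKM in mannose 1, 2 and 3, against 21.3, 27.97 and 24.1 FPKM in water 1, 2 and 3. In neither gene did the groups overlap, and the log2 differences were 0.40 (SE 0.15) for lin-35 and 0.53 (SE 0.16) for lin-9. For emb-30, of the anaphase-promoting complex, the range was 19.2 to 23.2 FPKM in mannose and 13.9 to 20.5 FPKM in water.

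The condensin genes capg-1 and mix-1, of the complex that compacts chromosomes, had 22.8 to 30.7 FPKM in mannose and 15.2 to 18.7 FPKM in water for capg-1 and 14.6 to 19.8 FPKM in mannose and 8.09 to 13.4 FPKM in water for mix-1, without overlap. The kinetochore gene him-10 had 62.9, 62.3 and 65.5 FPKM in mannose 1, 2 and 3, against 45.7, 54.4 and 41.4 FPKM in water 1, 2 and 3, also without overlap and with a log2 difference of 0.43 (SE 0.14). Of the contractile ring genes, nmy-2, a non-muscle myosin, had 34.5 to 65.3 FPKM in mannose and 21.4 to 42.8 FPKM in water. Its regulatory light chain gene mlc-4 had 321 to 367 FPKM in mannose and 303 to 326 FPKM in water.

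By position, 14 of the 40 members lie on chromosome I, 12 on III, 6 on IV and 4 each on II and V. The X chromosome holds 0. Of the tested genes, 17.4% lie on I, 16.8% on II, 16.7% on III, 18.6% on IV, 17.6% on V and 12.9% on X. A pair of members on chromosome IV, orc-5 and cyb-1, lie back to back on opposite strands with 109 bases between them, and the highest library was 1.53 times the lowest for orc-5 and 5.4 times for cyb-1. On chromosome III, orc-1 and orc-4 follow each other on the same strand with 60 bases between them, and both had little spread (1.42 and 1.21 times). Another tested gene model overlaps 5 members on the same strand (mcm-3, orc-4, cdk-1, air-2 and bub-1) and 15 members on the opposite strand, and the strand setting of the counting was not given in the sources used here, so values of these genes may hold reads of their neighbours. Positions are those of the deposited tables, on WBcel235.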

How the data were processed

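RNA of 6 libraries, 3 from worms given mannose and 3 from worms given water, was analysed from the authors' tables, 1 a library. The submitters' processing notes name cutadapt, FastQC and HISAT2 2.1.0 as tools and WBcel235 as the build, per the labels; a counting tool was not given in the sources used here. Each deposited table gives the authors' expression level of a gene as FPKM. The unit rests on the numbers themselves. Multiplied by gene length and divided by the smallest step of its library, a value came within 0.05 of a whole read for 95.1% to 95.8% of values worth up to 20 reads and 86.7% to 87.2% of all values above 0. The steps give read equivalents, used for depth and as an alternative.

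The 11237 genes with 3 or more libraries at an FPKM of 1 or above were tested two-sided with limma 3.58.1 (R 4.3.3, trend and robust settings) on log2(FPKM + 1), with Benjamini-Hochberg adjustment over all of them, as planned for values that are not counts; the scale understates the change of low genes. The fit was first tested on simulated data, with independent libraries and the same spread for every gene. That test does not cover the order of libraries that many real genes share. The members, lists, markers and the alternative without mannose 1 and water 3 were chosen with earlier results of these data known. Values by library are given, by rule, for the most abundant member, the one with the smallest p and the one with the widest spread in each of 9 roles, for members whose groups do not overlap and for the cyb-2 pair; others were added after their values were seen, as were the ratios between members. In the other lists the 3 genes with the smallest p are named, except 1 that is not reported here. The closest replicates, water 1 and water 2, differed by 8.33 times the sampling variance (median over genes), so each library was kept as a separate sample. Alternatives changed the pseudocount (0.1), the filter, the scaling, the libraries, the replicate term and the tool. No sequences were used.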

Additional observations from a re-analysis of the deposited data

How the results depend on the processing

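No member was called by limma under any of the 13 alternatives, and the lowest adjusted p of a member was 0.675. Of 520 member differences under these alternatives, 454 kept their sign; in the other 66 the sign changed with neither value called. The sign held under all alternatives in 17 members, 14 higher and 3 lower in mannose. The members' median difference was 0.0804 as reported and −0.0275 to 0.431 with each library left out, and limma called 0 to 2 genes of all tested in those fits. Without mannose 1 and water 3 together it called 3 genes (713 at an unadjusted p under 0.05), and 4 members, against 21, had a highest library at least 2 times the lowest. In that setting 10 members were higher and 4 lower without overlap, against 2 and 0 with all libraries; with each library left out the ranges were 2 to 9 and 0 to 4. Leaving out libraries also leaves fewer samples that could overlap. With upper-quartile scaling 17 members had a spread of at least 2 times. Under that scaling the SE of the difference rose from 0.134 to 0.217 for psf-1 and from 0.118 to 0.193 for rnr-2. It fell from 0.953 to 0.832 for mcm-7. How steady a member looks thus depends in part on the scaling.

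Replicates share numbers in the labels. The correlations of deviations from the group means were −0.74, 0.24 and −0.71 for pairs 1, 2 and 3. Mannose 2 correlated best with its own number (0.240, against 0.238 with water 1). Mannose 1 correlated best with water 3 (0.769) and mannose 3 with water 1 (0.715). Deviations within a group sum to 0, so these correlations cannot show whether libraries of the same number were handled together. With the replicate block limma called 0 genes and 0 members, with 164 genes and 0 members at an unadjusted p under 0.05, and the members' median difference stayed 0.0804. Depth does not limit these values as much as the spread between 3 libraries a group does.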
